A study of Homo sapiens with 27 samples.

Results

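The enzymes that build purine and pyrimidine nucleotides from small precursors were followed in U937, a human lymphoma cell line with monocytic features. The set held 10 genes: CAD, DHODH, UMPS and CTPS1 of the pyrimidine route, and PPAT, GART, PAICS, ATIC, IMPDH1 and IMPDH2 of the purine route. Probes were taken by gene symbol or older alias from the platform's table, which gave 11 of 30968 probes for 9 of the 10 genes, CTPS1 under its older name CTPS. DHODH and IMPDH2 had 2 probes each and the other genes 1. PAICS had no named probe and was not measured.

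RNA was read on a single-colour oligonucleotide array in 3 groups of 3 biological replicates with 3 technical arrays each, 27 arrays in all. Untreated U937 cells were compared with cells that received lipopolysaccharide (LPS), an outer-membrane glycolipid of bacteria that activates macrophages, at 4 µg/ml. The third group had PBD150, an inhibitor of glutaminyl cyclase, at 10 µM for 2 h and then LPS at 4 µg/ml. Culture lasted 48 h in every group. The labels call the cells macrophages but name no differentiating agent, no vehicle control and no group with PBD150 alone, and nothing in them says how the biological replicates were separated, so p-values measure the spread between these samples.

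De novo pyrimidine synthesis starts in CAD, a single protein with several enzyme activities, passes through DHODH in the inner mitochondrial membrane, and ends with UMPS making UMP and CTPS1 making CTP. De novo purine synthesis is committed by PPAT and continues through GART, PAICS and ATIC to IMP, the branch point between adenine and guanine nucleotides. IMPDH1 and IMPDH2 catalyse the same step from IMP towards GMP. These routes supply RNA and DNA synthesis in dividing cells, while salvage enzymes recycle bases and nucleosides.

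Promoter windows of 300 bases, reaching 250 bases before an annotated start, were taken from RefSeq on GRCh38.p14, where 9 of the 10 genes had 14 windows. IMPDH2 was not matched. The E-box CACGTG, the letters bound by MYC-MAX and USF factors, reads the same on both strands and lies in 4 of these 14 windows and in 7.26% of all 35116 windows. The genes with a match were DHODH, PPAT, PAICS and ATIC, and PPAT and PAICS share theirs. Their windows overlap by 236 bases on opposite strands, with starts 137 bases apart and transcription running away from each other. The GC box GGGCGG was found in 9 of the 14 windows and in 45.0% of all windows, and the letters CCAAT in 5 and in 34.6%. Both were searched on both strands, and none of these motifs contains another. The 5 windows with CCAAT belong to 3 genes, CAD, DHODH and GART. The GART windows chr21:33542840-33543139 and chr21:33542843-33543142 overlap almost wholly, so nearly the same bases are counted again. The lines that follow give the 250 bases before the start, 5′ to 3′ on the gene's strand, for the measured genes with an E-box and for IMPDH1, the measured member that did not pass the test for LPS. Capitals mark the E-box. DHODH lies on the plus strand (chr16:72008494-72008743) and PPAT on the minus strand (chr4:56435616-56435865). ATIC lies on the plus strand (chr2:215311809-215312058) and IMPDH1 on the minus strand (chr7:128409983-128410232). The first base of the match stands 159 bases before the start in DHODH, 182 in PPAT and 46 in ATIC. The ATIC window holds 2 E-boxes, and the other one, 29 bases after the start, lies outside the line shown.
DHODH: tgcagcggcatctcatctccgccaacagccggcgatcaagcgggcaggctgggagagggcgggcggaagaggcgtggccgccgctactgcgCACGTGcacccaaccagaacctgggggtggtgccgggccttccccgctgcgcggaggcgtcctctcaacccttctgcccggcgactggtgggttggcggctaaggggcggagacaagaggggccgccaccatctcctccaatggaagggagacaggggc
PPAT: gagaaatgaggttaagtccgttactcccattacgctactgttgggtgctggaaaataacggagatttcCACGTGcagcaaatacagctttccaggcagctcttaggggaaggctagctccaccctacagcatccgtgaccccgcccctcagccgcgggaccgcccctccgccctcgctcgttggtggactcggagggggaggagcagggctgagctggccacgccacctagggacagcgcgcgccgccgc
ATIC: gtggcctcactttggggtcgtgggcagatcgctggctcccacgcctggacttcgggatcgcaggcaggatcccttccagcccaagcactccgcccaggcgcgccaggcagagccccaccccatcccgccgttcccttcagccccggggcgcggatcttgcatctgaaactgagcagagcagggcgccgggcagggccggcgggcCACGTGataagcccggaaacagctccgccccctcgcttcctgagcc
IMPDH1: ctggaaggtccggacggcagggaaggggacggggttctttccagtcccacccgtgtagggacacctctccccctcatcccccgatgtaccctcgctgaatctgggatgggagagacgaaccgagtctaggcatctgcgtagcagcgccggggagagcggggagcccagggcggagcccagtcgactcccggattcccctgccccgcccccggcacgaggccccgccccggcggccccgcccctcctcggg
CTPS1, CAD, UMPS, GART and IMPDH1 had no E-box in their windows, so genes with and without these letters are among those measured below. With LPS their log2 differences were -2.60, -2.48, -0.79, -2.49 and -0.20, in that order. DHODH, PPAT and ATIC, with an E-box, were at -2.53, -1.48 and -1.55. A link between these letters and the size of the difference was not tested.

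Intensities were quantile normalised and are given as log2 values, so a difference of 1 is a doubling, and each replicate is the mean of its 3 arrays. Array medians before normalisation ran from 41.5 to 100.3 intensity units, and untreated replicate 1 was dimmest at 41.5 to 46.8, against 69.6 to 74.9 in untreated replicates 2 and 3. All member probes but 1 were above the noise limit (3 times the root mean square of an array's values below 0) on all 27 arrays. Of 8 markers of the U937 monocytic line 7 were measured, and 6 were above that limit on every array. FCGR1A, an Fc receptor, was above it on 7 of 9 untreated, 8 of 9 LPS and 4 of 9 PBD150 plus LPS arrays. Of the 7 monocytic markers, CD4, ITGB2 and PTPRC were called higher with LPS and 0 lower. Over all probes 10.6% were called higher with LPS and 11.8% lower. The summed log2 level of the 7 markers ran from 13.70 to 13.81 untreated and 14.87 to 15.44 with LPS. With PBD150 plus LPS that sum ran from 14.74 to 15.25. Of markers of other lineages, 3 of 3 for T cells, 2 of 3 for B cells, 3 of 3 for fibroblasts and 2 of 3 for epithelium were measured. None was below the limit on every array of a group, and CD2, MS4A1, DCN and EPCAM rose with LPS while CD79A fell. Some lay near the limit. CDH1 was above it on 1 of 9 untreated, 3 of 9 LPS and 3 of 9 PBD150 plus LPS arrays. For CD3E these counts were 5, 4 and 6. Of the markers that rose, CD2 was above it on 8 of 9 untreated arrays, and DCN and EPCAM on 7. The summed log2 level of these lists ran from 11.14 to 11.34 untreated and 11.25 to 12.29 with LPS for T cells, and from 9.82 to 9.95 and 8.71 to 9.29 for B cells. With PBD150 plus LPS they ran from 11.09 to 11.80 and from 8.50 to 8.96. Fibroblast markers summed to 8.59 to 8.78 in untreated cells, and to 8.81 to 9.49 and 9.27 to 9.52 in the groups treated with LPS and PBD150 plus LPS. Epithelial markers summed to 4.64 to 5.69, 6.95 to 7.41 and 7.13 to 7.42 in the same order. Their part in the results below was not tested.

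With LPS, 8 of the 9 measured genes fell, and 5 of them fell more than 4-fold, as 3.58% of all probes did. At an adjusted p under 0.05 over all probes (limma), 11.8% of the 30968 probes were lower, and 10.6% were higher, where no member was. The median difference of the members was -2.48 against 0.08 over all probes. In the same 8 genes every LPS replicate lay below every untreated replicate, as it did for 20.0% of all probes, and no member had the opposite order, which 23.4% of probes had. A lower signal in these bulk samples cannot tell fewer cells that make a transcript from less of it per cell.

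**Figure D1:**
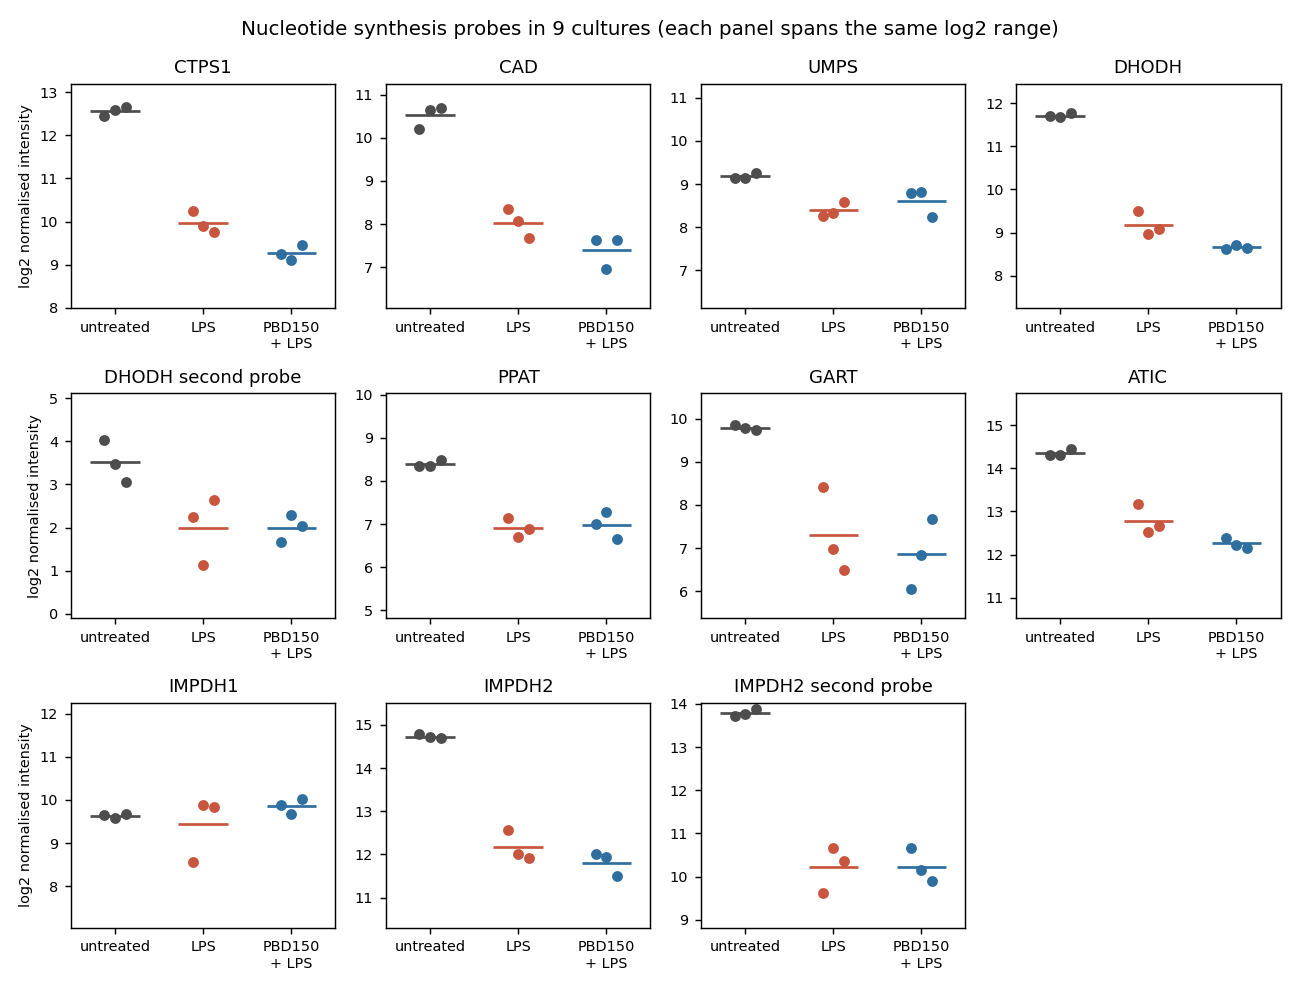
Normalised log2 intensity of the 11 member probes (y axis) in untreated, LPS and PBD150 plus LPS cells (x axis). Points are biological replicates 1 to 3 from left to right and bars are group means; each panel spans the same log2 range. All panels but IMPDH1 show the untreated points above both treated groups, and in GART the treated replicates are spread over more than in the other genes.

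In the pyrimidine route, CTPS1, which aminates UTP to CTP, had a fall that differed from those of DHODH, CAD, GART and IMPDH2, each by its brightest probe, by less than their standard errors. Its log2 intensity was 12.45, 12.58 and 12.65 in the untreated replicates and 10.24, 9.89 and 9.75 with LPS. The difference was -2.60 ± 0.20 (SE, n = 3 against 3, limma adjusted p = 7.6e-05), or 6.05-fold lower, and only 1.40% of all probes had a difference as low. The untreated replicates were close together and far above the LPS replicates, among which replicate 1 was highest.

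CAD, which carries out the opening steps from glutamine to dihydroorotate, had 10.20, 10.65 and 10.69 untreated and 8.35, 8.08 and 7.67 with LPS. It fell by 2.48 on the log2 scale (SE 0.28, limma adjusted p = 0.000429), or 5.60-fold. Both groups spread more than for CTPS1, with SDs of 0.27 and 0.34, but stayed well apart.

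DHODH, the mitochondrial dehydrogenase that makes orotate, had 11.70, 11.68 and 11.76 untreated and 9.50, 8.96 and 9.09 with LPS, a difference of -2.53 ± 0.19 (limma adjusted p = 7.24e-05). Untreated replicates lay close together while LPS replicate 1 stood above the other two. The second DHODH probe was above the noise limit on 3 of 9 untreated arrays and on no LPS or PBD150 plus LPS array, so it gives no usable fold.

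UMPS, which turns orotate into UMP, changed least among the genes called. Its values were 9.14, 9.14 and 9.25 untreated and 8.25, 8.34 and 8.58 with LPS. The difference of -0.79 ± 0.21 passed narrowly (limma adjusted p = 0.0294) and the groups did not overlap. The call was lost without normalisation between arrays (-0.48, adjusted p = 0.163). Nor did it pass without untreated replicate 1, 2 or 3 (adjusted p = 0.0783, 0.0843 and 0.096) or without LPS replicate 1 or 2 (0.0601 and 0.0838), with a difference of -0.81 to -0.72 in these fits.

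In the purine route, PPAT, the amidotransferase that commits the pathway, had 8.34, 8.35 and 8.48 untreated and 7.15, 6.71 and 6.88 with LPS. The difference was -1.48 ± 0.21 (limma adjusted p = 0.0016), or 2.78-fold lower. ATIC, which closes the purine ring to give IMP, had 14.30, 14.30 and 14.45 untreated and 13.18, 12.53 and 12.67 with LPS. Its difference was close to that of PPAT, at -1.55 ± 0.21 (limma adjusted p = 0.00117). Both genes kept their untreated and LPS values apart, and LPS replicate 1 was highest in each.

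GART, a protein with several activities of the early purine steps, had the most uneven response. Its values were 9.84, 9.79 and 9.73 untreated, and 8.42, 6.97 and 6.50 with LPS. The mean difference was -2.49 ± 0.54 (95% interval -3.71 to -1.26, limma adjusted p = 0.0111). The SD between LPS replicates was 1.00, against 0.05 untreated, and LPS replicate 1 retained the most signal.

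IMPDH2, the isoform raised in proliferating cells, fell on both of its probes. The brighter probe had 14.78, 14.73 and 14.69 untreated and 12.57, 12 and 11.92 with LPS, a difference of -2.57 ± 0.23 (limma adjusted p = 0.000158). The other probe had 13.72, 13.77 and 13.89 untreated and 9.63, 10.66 and 10.37 with LPS, a difference of -3.57 ± 0.30 (adjusted p = 0.000123). The probes agree on direction and differ in size, 5.95-fold against 11.9-fold lower, and order the LPS replicates differently.

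IMPDH1, the isoform of the same enzyme that many resting tissues express, was the measured member that did not pass. It had 9.65, 9.57 and 9.67 untreated and 8.55, 9.89 and 9.84 with LPS, so LPS replicate 1 lay below and the others above all untreated values. The mean difference was -0.20 ± 0.34 (95% interval -0.98 to 0.58, limma adjusted p = 0.729), and without LPS replicate 1 it was 0.24 (adjusted p = 0.368). The sign also turned on the values as deposited, at 0.09. The interval leaves out a fall as large as that of IMPDH2.

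The log2 difference between the IMPDH1 and IMPDH2 probes within a replicate was -5.16 to -5.02 untreated and -4.01 to -2.08 with LPS. LPS replicate 1 gave the -4.01, and the ranges do not overlap. The change in this difference was 2.37 ± 0.64, with p = 0.1 in an exact two-sided permutation test, the smallest that 3 against 3 allows, so the test cannot pass 0.05. CTPS1 was set against its paralogue CTPS2, which catalyses the same reaction, in the same way. CTPS2 was at 9.90 untreated and 9.55 with LPS (-0.35 ± 0.21, limma adjusted p = 0.276). The change of CTPS2 minus that of CTPS1 was 2.25 ± 0.16 (exact permutation p = 0.1, n = 3 against 3), with no overlap between the groups.

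The comparison named in the study's title asked what PBD150 changed in cells given LPS. No member passed, and no probe of the 30968 did (limma, smallest adjusted p 0.414). At an unadjusted p under 0.05, 3 of 9 members (CTPS1, DHODH and ATIC) had values below LPS, where 5.11% of all probes reached that p. In 4 of 9 genes, CTPS1, CAD, DHODH and ATIC, every PBD150 plus LPS replicate lay below every LPS replicate, as for 4.29% of all probes, and no member had the opposite order, as 3.69% of probes did. In 6 of 9 members the difference was below 0, as in 47.0% of all probes. The members are not separate observations, so these counts weigh less than as many unrelated probes would. Over the 9 replicates their 36 pairs had a median Pearson r of 0.91, with 29 pairs above 0 and the lowest at -0.33. Among CTPS1, CAD, DHODH and ATIC r was 0.98 to 0.99. These r include the step between groups, so they do not measure shared variation among the LPS-treated replicates alone, which was not tested. The counts against untreated cells weigh less in the same way. The member median was -0.45 against 0.03 over all probes, and it was -0.14 without LPS replicate 1.

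CTPS1 was at 9.25, 9.10 and 9.45 with PBD150 plus LPS, below the lowest LPS value of 9.75. The difference was -0.69 ± 0.20 (95% interval -1.14 to -0.24, limma adjusted p = 0.884). With all 27 arrays in the fit and each culture as a random block, CTPS1 passed (adjusted p = 0.0285). That fit takes 1 correlation of 0.239 for every probe, although replicates spread more in the LPS-treated groups. Over all alternatives the adjusted p ran from 0.0285 to 0.998.

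CAD had 7.63, 6.95 and 7.63 with PBD150 plus LPS (-0.63 ± 0.28, 95% interval -1.26 to 0.01, limma adjusted p = 0.906). DHODH had 8.63, 8.72 and 8.64 (-0.52 ± 0.19, 95% interval -0.95 to -0.09, adjusted p = 0.906). ATIC had 12.39, 12.23 and 12.15 (-0.54 ± 0.21, 95% interval -1.02 to -0.05, adjusted p = 0.906). In each of these genes the highest PBD150 plus LPS value lay below the lowest LPS value, with CAD, at 7.63 against 7.67, the closest. Without LPS replicate 1, which was the highest LPS replicate in 7 of the 9 genes and the lowest in the other 2, the differences were -0.47 for CAD, -0.36 for DHODH, -0.34 for ATIC and -0.55 for CTPS1.

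The remaining members overlapped between the LPS-treated groups. IMPDH2 had 12, 11.93 and 11.51 with PBD150 plus LPS (-0.35 ± 0.23), a difference of -0.14 without LPS replicate 1 and -0.20 without PBD150 plus LPS replicate 3. Its other probe had 10.65, 10.16 and 9.89 (0.02 ± 0.30). UMPS had 8.79, 8.82 and 8.23 (0.22 ± 0.21), a difference of 0.12 without PBD150 plus LPS replicate 2, 0.14 without replicate 1 of that group and 0.42 without its replicate 3. PPAT had 7.01, 7.27 and 6.65 (0.06 ± 0.21). The 95% intervals of UMPS, PPAT, DHODH and IMPDH2 excluded a 2-fold change in either direction, and those of the other 5 genes did not. GART had 6.04, 6.83 and 7.68 (-0.45 ± 0.54), with an interval from -1.67 to 0.78, and without LPS replicate 1 its difference was 0.11. IMPDH1 had 9.87, 9.68 and 10.01 (0.42 ± 0.34), and -0.01 without LPS replicate 1. These intervals use the spread shared with the untreated group, where the median SD of the brighter probes was 0.104, against 0.263 with LPS and 0.271 with PBD150 plus LPS.

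**Figure D2:**
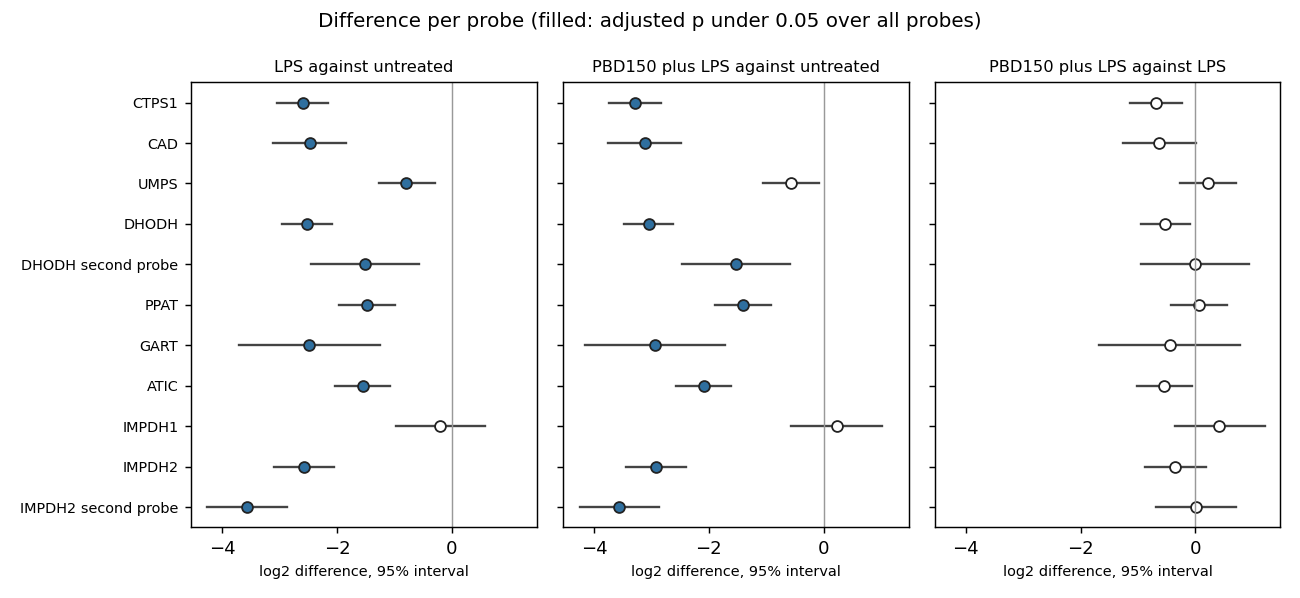
Log2 difference per member probe (x axis) in the 3 comparisons, with 95% intervals from the fit over all probes. Filled points passed an adjusted p under 0.05. In both comparisons with untreated cells most points lie between -1 and -4, IMPDH1 lies near 0, and with PBD150 plus LPS against LPS no point is filled. The second DHODH probe was not above noise in treated cells.

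Set against untreated cells, PBD150 plus LPS lowered 7 of the 9 genes, where 13.5% of all probes were lower and 12.6% higher. The median difference was -2.92 against 0.11 over all probes. This comparison shares its untreated arrays with LPS against untreated, so its values stand beside the earlier ones and are no second test of them. CTPS1 was at -3.29 ± 0.20 (limma adjusted p = 2.16e-05) or 9.77-fold, against -2.60 with LPS alone. CAD was at -3.11 ± 0.28 and DHODH at -3.05 ± 0.19. IMPDH2 was at -2.92 ± 0.23 and, on its other probe, -3.56 ± 0.30. GART was at -2.93 ± 0.54, ATIC at -2.09 ± 0.21 and PPAT at -1.41 ± 0.21, each with an adjusted p of at most 0.00445.

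UMPS and IMPDH1 did not pass here either way. UMPS was at -0.56 ± 0.21 (limma adjusted p = 0.0857). IMPDH1 was at 0.23 ± 0.34 (adjusted p = 0.674), although its lowest PBD150 plus LPS value of 9.68 lay just above the highest untreated value of 9.67, an order that 24.0% of all probes had. In the other 8 genes every PBD150 plus LPS replicate lay below every untreated replicate, as for 21.3% of probes. IMPDH1 minus IMPDH2 changed by 3.14 ± 0.23 (exact permutation p = 0.1, n = 3 against 3).

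Other genes of nucleotide metabolism were read from lists by role, each gene by its brightest probe. The list counts for LPS stand beside 11.8% of all probes lower and 10.6% higher. Of 7 measured further de novo enzymes, 5 fell with LPS and none rose. ADSL, which acts in both the IMP and AMP branches, was at -1.53, PFAS, the enzyme after the GART transformylase step, at -1.63, and ADSS2, of the AMP branch, at -1.14. GMPS, which follows IMPDH on the way to GMP, was at -1.51, and at -2.46 on its other probe. Their median was -1.51, and on the values as deposited 3 of the 7 passed.

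Folate enzymes that supply carbon units to purines and thymidylate were mixed, with 4 of 8 lower and 2 higher. MTHFD1, a cytosolic folate enzyme, was at -2.15 on its brighter probe and at -0.33, not called, on the other. MTHFD1L, its mitochondrial relative, was at -2.36 and SHMT2, which makes glycine from serine, at -0.82, with its other probe at -2.12. MTHFS was at 0.77 on its brighter probe and at 0.28, not called, on the other. The other gene called higher, ALDH1L1, was above the noise limit on 0 of 9 untreated and 2 of 9 LPS arrays, so it is at background. It is named after its value was seen. The rises in this list were fewer under 12 of 17 alternatives.

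Of 8 genes of deoxynucleotide supply, 6 fell and 2 rose. TYMS, thymidylate synthase, was at -3.08, DUT, which clears dUTP, at -2.39 and DTYMK, thymidylate kinase, at -2.18. RRM2B, the p53-inducible subunit of ribonucleotide reductase, rose by 1.36. The other gene called higher was SAMHD1, which degrades dNTPs, named after its value was seen. It was above the noise limit on 2 of 9 untreated and 9 of 9 LPS arrays, so no fold is given.

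Salvage genes also included falls, with 5 of 12 lower and 2 higher, where 11.8% of all probes were lower and 10.6% higher. The 2 called higher were UPP1 at 2.00 and TK2 at 1.71, named after their values were seen. Under 5 of 17 alternatives only 1 salvage gene was called higher. UCK2, a uridine-cytidine kinase, was at -2.21, DCK, deoxycytidine kinase, at -2.83 and TK1, the thymidine kinase of dividing cells, at -2.33. The other TK1 probe was at -3.53. SLC29A1, a nucleoside transporter, was at -2.30 on its brighter probe and -0.12, not called, on the other. Among 5 nucleotide kinases 1 fell, NME2 at -3.29, and 2 rose, GUK1 at 0.84 and AK1 at 0.75, while the other AK1 probe was at 0.07 and not called. CMPK1 was at 0.53 (limma adjusted p = 0.132). The number of nucleotide kinases called higher differed under 7 of 17 alternatives, with a range of 1 to 3.

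Of 12 genes of nucleotide breakdown, 5 rose, 1 fell and 6 did not pass, with a median of 0.40, where 10.6% of all probes were higher. AMPD3, an AMP deaminase, rose by 3.30, DPYD, the rate-limiting enzyme of pyrimidine breakdown, by 2.31 and CDA, cytidine deaminase, by 1.75. NT5C3A, a pyrimidine nucleotidase, fell by 2.42 on the log2 scale. ADA, among the 5 that rose, was at 0.95 on its brighter probe and at -0.37, not called, on the other. UPB1, counted as not passing at 0.43, was at 1.13 (limma adjusted p = 0.00348) on its other probe. The rises numbered 3 under 7 of 17 alternatives, among them those without untreated replicate 1, 2 or 3 or LPS replicate 2 or 3. The difference between this list and the synthesis genes was not tested. In PBD150 plus LPS against LPS no gene of these lists passed (limma), with list medians from -0.34 to -0.04.

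**Figure D3:**
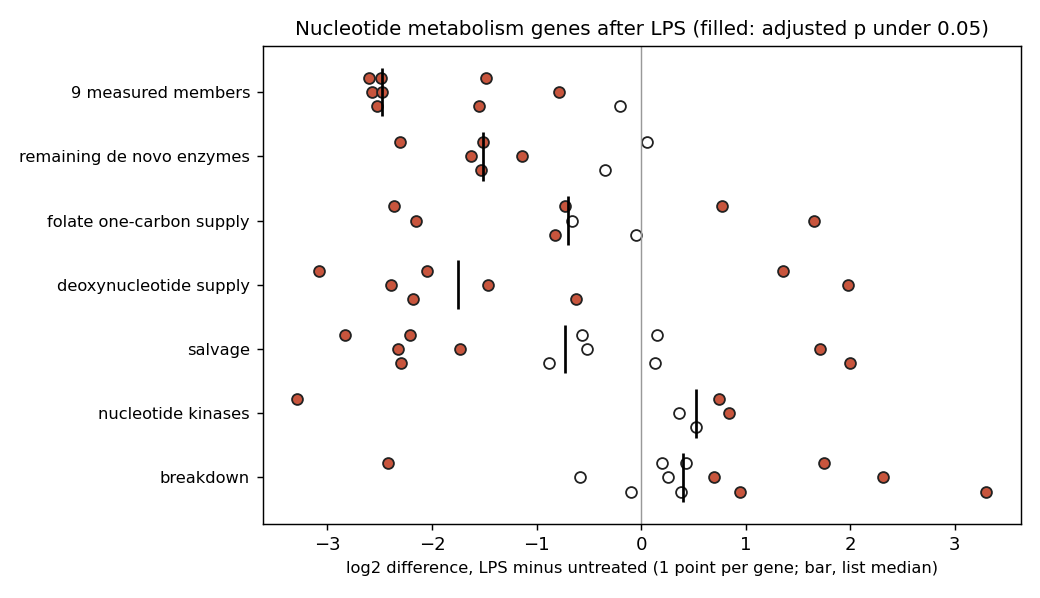
Log2 difference between LPS and untreated cells (x axis) for the measured members and for lists of other nucleotide genes (y axis), 1 point per gene at its brightest probe, with the list median as a bar. Filled points passed an adjusted p under 0.05. The members' median of -2.48 lies farthest left, while the breakdown and nucleotide kinase lists have medians of 0.40 and 0.53.

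Cell division markers moved with the members. All 4 measured of 6, MKI67, PCNA, CCNB1 and BUB1, fell with LPS, where 11.8% of all probes were lower. The median of these markers was -2.13, against 0.08 over all probes. Their summed log2 level was 16.14 to 16.15 untreated, 14.45 to 14.87 after LPS, and 14.29 to 14.50 where PBD150 came before LPS. BUB1 was above the noise limit on 8 of 9 LPS arrays and on 5 of 9 PBD150 plus LPS arrays. The part of these markers in the fall of the synthesis genes was not tested. Averaged over the 9 members, log2 intensity was 11.15 to 11.26 untreated, 9.21 to 9.58 after LPS, and 9.06 to 9.11 where PBD150 came before LPS. Among 10108 brighter named probes outside the lists, those most like this average profile over the 9 replicates were GEMIN4, PIGU, RSL1D1, OIP5 and PBK, with a Pearson r of 0.998 to 0.999. That likeness describes mainly the step between untreated and treated replicates, which many probes share.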

How the data were processed

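Single-colour (Cy5) arrays of U937 RNA gave the linear spot intensity values that the authors deposited, 1 per probe and array, with some below 0. How the scanner values were background corrected or scaled is not stated in the labels. Values under 1 were set to 1 before the log2 step, quantile normalisation covered all 27 arrays, and the 3 technical arrays of a biological replicate were averaged. The 3 biological replicates per group limit the precision. Differences were tested over 9 replicates by limma 3.58.1 (R 4.3.3), fitting 1 mean per group, with two-sided moderated tests and Benjamini-Hochberg adjustment over 30968 probes, a threshold of 0.05, and no replicate block. Single contrasts between 2 probes used the exact permutation test. The code was tested on simulated data.

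Replicates of a group differed by more than technical error alone would give, which is a median ratio of 0.741. The untreated replicates exceeded it least, at 0.906 to 1.10. With LPS the ratio was 1.21 to 2.07, and with PBD150 plus LPS 1.02 to 2.09. Symbols came from the platform's table, where 17397 probes had 1 symbol, 0 several and 13571 were unnamed here, and 2645 symbols were updated through RefSeq. The symbol GARS, an alias shared by GART and another gene, was not used. Where a gene had several probes, the brightest stood for it. All member probes are named. Other genes named are up to 4 of each list with the smallest p for LPS against untreated, CTPS2 and GMPS, and the 5 most alike in profile. Markers, SAMHD1, ALDH1L1, UPP1, TK2, ADA and UPB1 are named outside this rule. Members, lists, markers and motifs were chosen with earlier results of these data known. A comparison of paralogue proteins was planned and is not reported here. Alternatives were no or median scaling, a pseudocount of 16, a noise filter, array weights, 27 arrays with a random block, a replicate block, 2 groups only and left-out replicates.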

Additional observations from a re-analysis of the deposited data

How the results depend on the processing

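The members called lower numbered 7 to 8 of 9 in both comparisons with untreated cells under all 17 alternatives, 7 to 8 and 7 to 7 with 1 replicate left out, and none was called higher. UMPS alone moved in or out of these counts. It passed for PBD150 plus LPS against untreated with median centring (-0.75, adjusted p = 0.043), a pseudocount of 16, the noise filter and the random block. The second DHODH probe, near noise, lost its call in 6 of 16 alternatives in each of these comparisons. PBD150 plus LPS against LPS had 0 members lower except with the random block, which gave 1 (CTPS1, -0.69).

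Same-numbered replicates did not deviate together (r from -0.51 to 0.12, 1 of 9 over 0.1), and not every replicate correlated best with its own number. With a replicate block 7 members were lower in LPS against untreated, UMPS being lost (-0.79, adjusted p = 0.0786).

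Signs turned only for differences that did not pass. In LPS against untreated IMPDH1 was 0.09 as deposited and 0.12 with array weights, and -0.43 to 0.24 with 1 replicate left out. In PBD150 plus LPS against LPS, PPAT was -0.07 as deposited, and the second IMPDH2 probe was -0.20 as deposited, -0.04 with median centring and -0.15 with array weights. The second DHODH probe was 0.05, 0.21 and 0.33 in the same order and 0.03 with a pseudocount of 16. With 1 replicate left out the ranges were -0.08 to 0.23 for PPAT, -0.28 to 0.23 for the second IMPDH2 probe, -0.44 to 0.31 for the second DHODH probe, -0.86 to 0.11 for GART and -0.01 to 0.66 for IMPDH1. The cause was not tested.

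Over all probes, LPS against untreated had 3292 higher and 3664 lower, but 5935 and 2205 as deposited and 5458 and 5552 with array weights, and 2415 lower without untreated replicate 2. PBD150 plus LPS against untreated had 6373 higher with array weights against 3887. PBD150 plus LPS against LPS had 1 higher and 13 lower with the random block against 0. As deposited the median of all probes was 0.41 for LPS against untreated, and that of the members -2.11. Dim probes have the least certain differences.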
